A study of Mus musculus with 12 samples.

Results

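The genes described here are 9 interferon-stimulated genes of the mouse liver: Ifit1, Ifit2, Ifit3, Isg15, Rsad2, Ifi44, Mx1, Mx2 and Irf7. They were chosen by name, with earlier results of these data known. Each was found in the count table through the Ensembl identifier that GENCODE vM1 gives it. All 9 had a row among the 51609 rows of the table, and all 9 were among the 17652 genes that passed the filter on low counts. RNA-seq was performed on whole liver from 4 groups of 3 mice on the C57BL/6 background, aged 5 to 7 weeks. In wild-type mice and in mice with the genotype Rela and Stat3 knockout, livers were taken either from animals drinking water or after 2% dextran sodium sulfate (DSS, which injures the colon epithelium and causes colitis) in the water for 6 days. Per the methods of the study, the wild-type mice were littermates with floxed genes and no Cre. The knockout mice carried Cre under the albumin promoter, so Rela (an NF-kB subunit) and Stat3 were targeted in hepatocytes. Deletion in the other cells of the liver was not measured here. Mice of either sex were used, and the labels do not give the sex of each animal. The comparison asks how far the interferon genes of the liver responded to colitis, and whether that response differed when hepatocytes were targeted for Rela and Stat3.

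Interferons are cytokines that warn cells of virus or of foreign nucleic acid. Type I and type III interferons bind receptors coupled to the kinases Jak1 and Tyk2, and signalling from the receptor ends at an interferon-stimulated response element in the promoters of the target genes. The Ifit proteins bind viral RNA and block its translation, Isg15 is a ubiquitin-like protein that is attached to other proteins, Rsad2 (viperin) makes a nucleotide that stops viral polymerases, and Mx proteins are dynamin-like GTPases that trap viral particles. Irf7 is the transcription factor that amplifies the production of interferon alpha. C57BL/6 mice transcribe Mx1 and Mx2 but carry alleles of both that yield no functional protein, so those transcripts are read here as a response and not as an antiviral activity.

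The libraries held 65879529 to 82850098 estimated counts. Levels are given as CPM, the counts scaled to a common library size after TMM normalization, n = 3 per group. The check of the targeted genes did not bear out the label at the level of whole-gene counts for Rela, which was at 41.2 to 54.5 CPM in untreated and 39.8 to 55.5 CPM in DSS-treated wild-type livers, and at 42.8 to 51.4 and 39.5 to 62.3 CPM in the livers labelled knockout. Stat3 was at 45.7 to 138 and 63.2 to 329 CPM in wild-type livers and at 45.9 to 49.7 and 43.0 to 74.8 CPM in the livers labelled knockout. Counts per gene cannot show a deleted exon. The study characterised its strains by genotyping and by western blots of Rela and Stat3 in liver and colon. The livers are called knockout-labelled below. Liver markers were high in every library, with Alb at 62876 to 150212 CPM. The second DSS-treated wild-type library stood apart, with a TMM factor of 0.758 (0.953 to 1.12 in the others) and 15 acute-phase genes summing to 242900 CPM against 18710 to 73194 CPM. Xist, which is transcribed from the inactive X chromosome, was at 902 to 1283 CPM in the 3 DSS-treated knockout-labelled livers and at 1143 CPM in the third untreated wild-type liver, against 0.191 to 29.0 CPM in the other 8. Summed Y-chromosome transcripts were at no more than 0.120 CPM in the DSS-treated knockout-labelled livers and at 30.1 CPM in that wild-type liver, against 175 to 241 CPM in the others. All 3 DSS-treated knockout-labelled libraries thus differed in sex-linked transcripts from the 3 untreated ones, and in that genotype sex and DSS cannot be told apart.

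Ifit2, Ifit3 and Ifit1 are neighbours on the plus strand of chromosome 19 (mm9, GENCODE vM1), at chr19:34625184-34650909, chr19:34658021-34663221 and chr19:34715361-34724499, with 7111 and 52139 bases between them. Mx1 (chr16:97668642-97684514, minus strand) and Mx2 (chr16:97757690-97782506, plus strand) lie 73175 bases apart. Isg15 (chr4:155573533-155574927), Rsad2 (chr12:27127618-27141317), Ifi44 (chr3:151393886-151412911) and Irf7 (chr7:148448605-148452380) are on the minus strands of their chromosomes. Of all stretches of 100 bases in its protein-coding transcripts, Ifit3 shared 31.7% with Ifit3b (I830012O16Rik in vM1), Ifit1 shared 3.29% with Ifit1bl2 (2010002M12Rik), and Mx1 and Mx2 shared 1.14% and 1.77% with each other, so the division of Ifit3 reads in particular is uncertain. The other 5 shared none. Irf7 overlaps Phrf1 on the opposite strand by 45 bases, and whether the counting used strand is not given in the sources used here.

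The promoters are shown because the 9 genes moved together and because the response element is where interferon signalling meets them. RefSeq promoter windows (GRCm38.p6, 250 bases before to 50 bases after the start) were matched for 7 of the 9 genes; Mx1 and Mx2 had none in the table. The core of the element was searched as GAAANNGAAA on both strands (TTTCNNTTTC on the printed strand when reversed). It was found for 4 of the 7: Ifit1, Ifit3, Isg15 and Rsad2. Over all genes in the table, 3.99% had a window with a match, and 3.44% of the 32851 windows held it. The match nearest the start is printed with its flanks, 5′ to 3′ on the strand of the gene, with the matched bases in capitals.
Ifit1 (chr19:34640786-34640831, plus strand): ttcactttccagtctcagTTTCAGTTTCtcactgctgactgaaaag
Ifit3 (chr19:34583389-34583434, plus strand): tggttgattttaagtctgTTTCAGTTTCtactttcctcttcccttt
Isg15 (chr4:156200857-156200914, minus strand): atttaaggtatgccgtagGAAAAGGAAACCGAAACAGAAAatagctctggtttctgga
Rsad2 (chr12:26456545-26456590, minus strand): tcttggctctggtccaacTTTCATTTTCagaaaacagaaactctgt
The printed matches of Ifit1 and Ifit3 have the same 10 bases, start 85 and 122 bases before the gene, and read in the reverse direction. In Isg15, 3 overlapping matches form 1 unbroken run that starts 78 bases before the gene. The Rsad2 match starts 120 bases before it. These letters were not in the windows of Ifit2, Ifi44 and Irf7. A match is a stretch of sequence and was not tested for binding.

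After DSS, all 9 genes stood higher in every treated liver than in any untreated liver of the same genotype. Among all tested genes, 9.49% did so in wild-type livers and 17.8% in knockout-labelled livers. In bulk liver, more cells that express a gene and more RNA per cell cannot be told apart. The level of each gene in all 12 libraries is drawn in the plot of CPM by group.

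**Figure D1:**
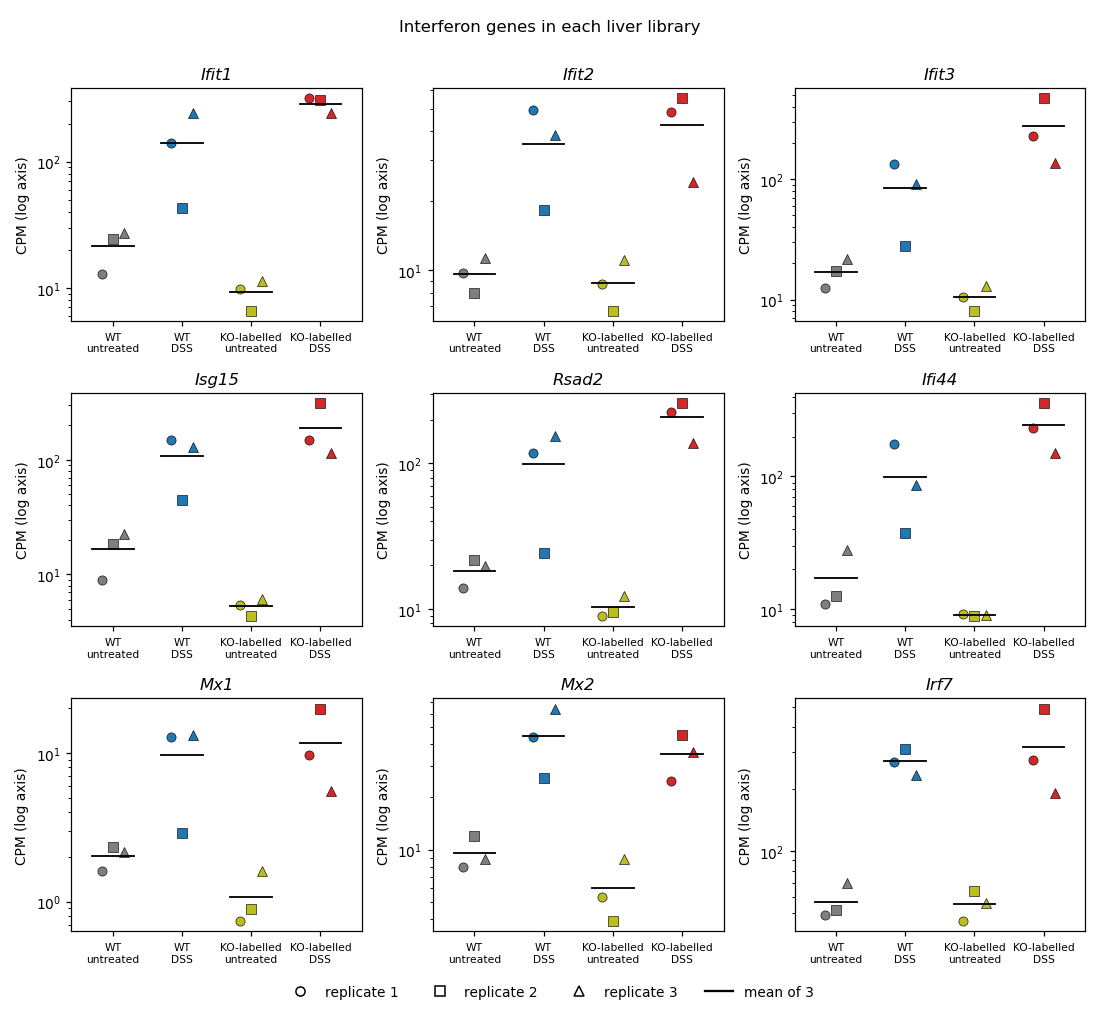
Level of each of the 9 interferon genes in CPM (log axis, 1 panel a gene) in each of the 12 libraries, with wild type (WT) and knockout-labelled (KO-labelled) livers untreated or after DSS; marker shapes give the replicate number and the line the mean of 3. All treated livers lie above the untreated livers of their genotype, and WT DSS replicate 2 is the lowest treated wild-type liver for 8 genes and the highest for Irf7, at 312 CPM.

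The Ifit genes encode a family of tetratricopeptide-repeat proteins that bind RNA. Ifit1 was at 12.8, 24.4 and 27.1 CPM in untreated wild-type livers and at 139, 42.7 and 242 CPM after DSS. In knockout-labelled livers it was at 9.78, 6.59 and 11.3 CPM untreated and at 317, 305 and 243 CPM after DSS. The treated wild-type livers spread over a wide range and the treated knockout-labelled livers over a narrow one, and the ranges of the 2 treated groups nearly touched. The wild-type difference was 6.59-fold (log2 fold change 2.72 ± 0.53 SE, edgeR adjusted p = 0.0533) and did not pass the threshold of 0.05. In knockout-labelled livers Ifit1 rose 31.2-fold (4.97 ± 0.59, adjusted p = 0.00196).

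Ifit3, whose protein acts as a partner of Ifit1 and Ifit2, was at 12.5, 17.2 and 21.6 CPM in untreated and 135, 28.0 and 92.0 CPM in treated wild-type livers. The knockout-labelled livers had 10.4, 8.10 and 13.0 CPM untreated and 227, 469 and 136 CPM treated. The second treated wild-type liver was again the lowest of its group, close to the untreated range, and the second treated knockout-labelled liver was the highest of all 12. The wild-type log2 fold change was 2.31 ± 0.58 (adjusted p = 0.102), and the gene rose 26.4-fold in knockout-labelled livers (4.72 ± 0.64, adjusted p = 0.00451). Ifit2 moved less and more evenly between genotypes. It was at 9.71, 7.97 and 11.3 CPM in untreated wild-type livers and at 49.4, 18.2 and 38.4 CPM after DSS, against 8.69, 6.69 and 11.1 CPM and 48.2, 55.4 and 24.2 CPM in knockout-labelled livers. The treated groups overlapped throughout. Its difference was 3.66-fold in wild-type livers (1.87 ± 0.38, adjusted p = 0.0533), and it rose 4.83-fold in knockout-labelled livers (2.27 ± 0.38, adjusted p = 0.00837).

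Isg15, the ubiquitin-like modifier, was at 8.86, 18.6 and 22.6 CPM in untreated wild-type livers and at 150, 44.6 and 128 CPM after DSS. Knockout-labelled livers had 5.45, 4.37 and 6.11 CPM untreated and 148, 311 and 114 CPM treated. All 3 untreated knockout-labelled livers lay under the lowest untreated wild-type liver, while the treated groups overlapped. Isg15 had the largest change of the 9 in knockout-labelled livers, where it rose 35.9-fold (log2 fold change 5.17 ± 0.60, adjusted p = 0.00182). The wild-type difference was 6.45-fold (2.69 ± 0.53, adjusted p = 0.0537).

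Rsad2, the gene of viperin, was at 13.9, 21.6 and 19.6 CPM untreated and 118, 24.4 and 154 CPM treated in wild-type livers. In knockout-labelled livers the values were 9.0, 9.57 and 12.2 CPM untreated and 225, 258 and 139 CPM treated. The second treated wild-type liver exceeded the highest untreated liver by only a small margin, and the other 2 stood far above it. The wild-type log2 fold change was 2.43 ± 0.54 (adjusted p = 0.0794), and Rsad2 rose 20.2-fold in knockout-labelled livers (4.33 ± 0.59, adjusted p = 0.00448). Ifi44, an interferon-induced cytoplasmic protein, was at 10.9, 12.5 and 27.6 CPM untreated and 174, 37.3 and 85.7 CPM treated in wild-type livers, and at 9.2, 8.88 and 8.92 CPM untreated and 231, 356 and 150 CPM treated in knockout-labelled livers. Its untreated knockout-labelled livers were almost equal, and its treated groups overlapped. The wild-type log2 fold change was 2.54 ± 0.56 (adjusted p = 0.0770), and Ifi44 rose 27.3-fold in knockout-labelled livers (4.77 ± 0.62, adjusted p = 0.00364).

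Mx1 was the least abundant of the genes, at 1.62, 2.34 and 2.16 CPM in untreated wild-type livers and at 12.9, 2.91 and 13.2 CPM after DSS. In knockout-labelled livers it was at 0.744, 0.897 and 1.61 CPM untreated and at 9.64, 19.9 and 5.52 CPM treated. The lowest treated wild-type liver lay just above the untreated ones, and the treated genotypes overlapped. Its wild-type log2 fold change was 2.24 ± 0.60 (adjusted p = 0.117), and it rose 10.8-fold in knockout-labelled livers (3.43 ± 0.63, adjusted p = 0.0128). Mx2 was at 7.92, 12 and 8.85 CPM untreated and 44.2, 25.6 and 64.1 CPM treated in wild-type livers, and at 5.38, 3.92 and 8.80 CPM and 24.6, 45.0 and 36.2 CPM in knockout-labelled livers. It was the only member whose treated mean was lower in knockout-labelled than in wild-type livers. Mx2 rose in both genotypes, 4.66-fold in wild-type livers (2.22 ± 0.38, adjusted p = 0.0238) and 5.85-fold in knockout-labelled livers (2.55 ± 0.38, adjusted p = 0.0050).

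Irf7, the transcription factor of the group, was at 49.0, 51.6 and 69.5 CPM in untreated wild-type livers and at 270, 312 and 232 CPM after DSS. It was at 45.8, 64.0 and 56.1 CPM in untreated and 276, 490 and 191 CPM in treated knockout-labelled livers. The untreated genotypes overlapped, and Irf7 was the only member for which the second treated wild-type liver was the highest of its group. Irf7 rose 4.78-fold in wild-type livers (2.26 ± 0.30, adjusted p = 0.00756) and 5.77-fold in knockout-labelled livers (2.53 ± 0.30, adjusted p = 0.000957).

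In wild-type livers, 2 of the 9 genes passed the test after DSS, Mx2 and Irf7, and both were higher; 0.453% of all tested genes were called higher. All 9 had an unadjusted edgeR p under 0.05. Counts at an unadjusted p are given here and below without the share of all tested genes, and they are not calls. The log2 fold changes of the 9 ran from 1.87 to 2.72, with a median of 2.31 against 0.02 for all tested genes. Without the second treated wild-type library, all 9 passed, and without any one of the untreated wild-type libraries only Irf7 did. In knockout-labelled livers, all 9 passed and were higher, against 4.57% of all tested genes. Their log2 fold changes ran from 2.27 to 5.17, with a median of 4.33 against -0.01 for all tested genes. With a covariate for sex, set by Xist above 100 CPM, none of the 9 passed in knockout-labelled livers, although all 9 kept an unadjusted p under 0.05 in edgeR and a median log2 fold change of 3.53. The standard errors in that fit were 1.81 times as large at the median. The third untreated wild-type liver, which had both Xist and Y-chromosome transcripts, is the only library in that fit that separates sex from group.

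**Figure D2:**
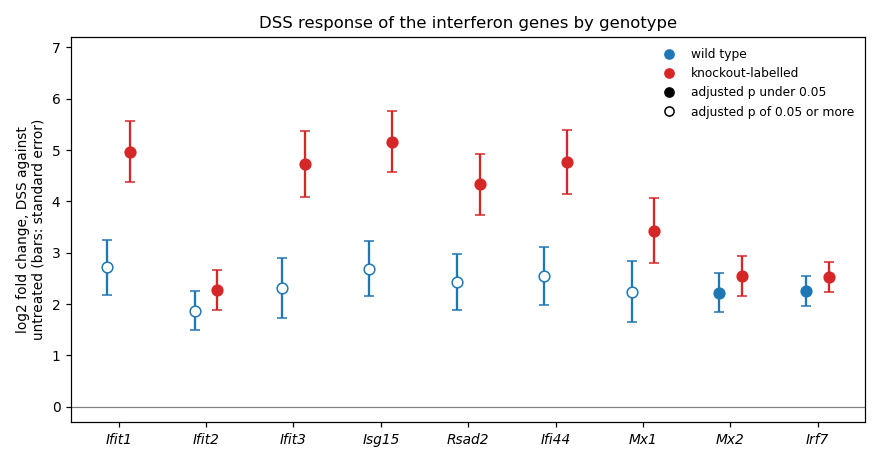
Log2 fold change of each gene after DSS in wild-type (blue) and knockout-labelled (red) livers, with the standard error from the edgeR model; filled points have an adjusted p under 0.05. The 9 red points are all filled, from 2.27 to 5.17, and only Mx2 and Irf7 are filled in blue.

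Levels were compared between genes per kilobase of exon. In untreated wild-type livers the order was Isg15 (22.1 ± 9.33 CPM per kb, SD), Irf7 (18.8 ± 3.68), Ifit3 (9.79 ± 2.61), Ifit1 (8.07 ± 2.87), Rsad2 (4.24 ± 0.927), Mx2 (3.96 ± 0.875), Ifi44 (2.78 ± 1.51), Ifit2 (2.46 ± 0.428) and Mx1 (0.559 ± 0.103). Neighbours in this order differed by less than their spread, except that Irf7 stood above Ifit3, Ifit1 above Rsad2 and Ifit2 above Mx1. For Ifi44, 6116 exon bases were used, against 2761 stretches of 100 bases in its protein-coding transcripts, so its place depends on the length chosen. In treated wild-type livers Isg15 (142 ± 73.5 CPM per kb) and Irf7 (89.7 ± 13.2) led again. In untreated knockout-labelled livers Irf7 led, at 18.3 ± 3.01 CPM per kb against 7.03 ± 1.16 for Isg15 and 6.03 ± 1.42 for Ifit3. After DSS the leading genes of that genotype were Isg15 (253 ± 139 CPM per kb), Ifit3 (159 ± 98.5), Ifit1 (109 ± 14.8) and Irf7 (106 ± 50.9), and each was within its spread of the next. Mx1 stayed the lowest in all 4 groups and reached 3.20 ± 2.03 CPM per kb.

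Without treatment, knockout-labelled livers had lower means of all 9 genes than wild-type livers, and none passed the test in edgeR, where 0.0623% of all tested genes were called in either direction. The median log2 difference of the 9 (knockout-labelled minus wild type) was -0.84 against 0.00 for all tested genes. The differences were largest for Isg15 (-1.65 ± 0.52, adjusted p = 0.289) and Ifit1 (-1.22 ± 0.51, adjusted p = 0.391), which were the 2 with an unadjusted p under 0.05. For 5 genes, Ifit1, Isg15, Rsad2, Ifi44 and Mx1, every knockout-labelled liver lay below every wild-type liver, as did 10.7% of all tested genes. Irf7 (-0.04 ± 0.28) and Ifit2 (-0.13 ± 0.37) had the smallest differences. DESeq2 called 1 of the 9, Isg15, with an adjusted p of 0.0192, and called 2.22% of the genes to which it gave an adjusted p.

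After DSS, 8 of the 9 genes had higher means in knockout-labelled than in wild-type livers, and none passed the test in edgeR, where 0.334% of all tested genes were called in either direction. The median log2 difference was 0.83 against 0.00 for all tested genes. Ifit3 (1.71 ± 0.56, adjusted p = 0.227) and Ifi44 (1.31 ± 0.54, adjusted p = 0.313) were the 2 with an unadjusted p under 0.05. Over the settings run, the difference went from 1.10 to 2.21 for Ifit3 and from 0.07 to 2.00 for Ifi44. Every knockout-labelled liver lay above every wild-type liver for Ifit1 (lowest 243 against highest 242 CPM) and Ifit3 (136 against 135 CPM), and 8.8% of all tested genes did not overlap in this direction. Mx2 was lower (-0.34 ± 0.36, adjusted p = 0.726). Leaving out the second treated wild-type library turned the sign of Ifit2 and Mx1. Without the second treated knockout-labelled library, Mx1 and Irf7 changed sign. All 3 treated knockout-labelled livers had high Xist and almost no Y-chromosome transcripts, and all 3 treated wild-type livers had Y-chromosome transcripts, so sex and genotype cannot be told apart among treated livers. With sex as a covariate the median difference was 0.11, Ifit2 and Irf7 changed sign, and 0 of the 9 had an unadjusted p under 0.05 in edgeR.

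The DSS response itself was compared between genotypes by the interaction, the knockout-labelled log2 fold change minus the wild-type one. No member passed in edgeR, where 0.408% of all tested genes were called in either direction. The estimate was above 0 for all 9. Of the 9, 5 had an unadjusted p under 0.05, a count given without the share of all tested genes. The estimates were largest for 5 genes and smallest for Ifit2, Mx2 and Irf7, with Mx1 between them. Isg15 (2.48 ± 0.72, adjusted p = 0.16), Ifit3 (2.41 ± 0.79, 0.193), Ifit1 (2.25 ± 0.72, 0.184), Ifi44 (2.23 ± 0.76, 0.205) and Rsad2 (1.91 ± 0.74, 0.247) had the highest estimates. As folds these estimates were 3.75 to 5.57, and none of the 5 passed in edgeR. Over the settings run, the estimate went from 0.45 to 2.92 for Ifi44 and from 1.48 to 2.80 for Isg15. Mx1 (1.19 ± 0.82), Ifit2 (0.40 ± 0.52), Mx2 (0.33 ± 0.51) and Irf7 (0.27 ± 0.40) had an unadjusted p over 0.05. The interaction is the treated genotype difference minus the untreated one, and shares its libraries with both. DESeq2 called 1 of the 9, Isg15, with an adjusted p of 0.00607, and called 4.61% of the genes to which it gave an adjusted p. In the knockout-labelled mice sex-linked transcripts moved with DSS, as given above, and their part in the interaction was not tested beyond the fit with sex as a covariate, in which the median estimate was 1.02, 7 of the 9 stayed above 0 and 0 of the 9 had an unadjusted p under 0.05.

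The acute-phase response is the release of plasma proteins by hepatocytes under Stat3 and NF-kB, and its level was set beside the interferon genes in each treated liver. Of 24 acute-phase genes listed, 15 had a row, among them Saa2 (serum amyloid A), Lcn2 (lipocalin 2), Mt2 (metallothionein), Hp (haptoglobin) and Hpx (hemopexin), the 5 with the largest wild-type fold. Saa2 was at 10.1, 23323 and 698 CPM in the treated wild-type livers and at 0.984, 14.6 and 73.1 CPM in the treated knockout-labelled livers. Lcn2 was at 14.2, 5729 and 196 CPM and at 21.8, 61.4 and 61.8 CPM in the same order, and Hp at 1653, 35600 and 8320 CPM and at 1235, 1852 and 1702 CPM. All 15 genes were highest in the second and lowest in the first treated wild-type liver. None of the 15 passed the test in edgeR in either genotype after DSS, with 14 in wild-type and 4 in knockout-labelled livers at an unadjusted p under 0.05.

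The wild-type livers did not order the same way by interferon genes as by acute phase. As log2 differences from untreated livers of the same genotype, the first treated wild-type liver had a mean of 2.75 over the 9 interferon genes and a median of 0.30 over the 15 acute-phase genes. The second had 1.15 and 3.47, and the third had 2.68 and 1.68. The liver with the strongest acute phase thus had the smallest interferon difference, and the other 2 had like interferon means at different acute-phase medians. The second liver was the lowest of the 3 for 8 of the 9 genes, and its differences of the 9 genes ran from 0.43 for Rsad2 to 2.48 for Irf7. The knockout-labelled livers had interferon means of 3.74, 4.39 and 3.23 and acute-phase medians of 0.48, 0.49 and 0.58, so large interferon differences were seen at an acute-phase level near that of the first wild-type liver. The 6 livers fall into 2 groups of 3, and no correlation was tested.

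**Figure D3:**
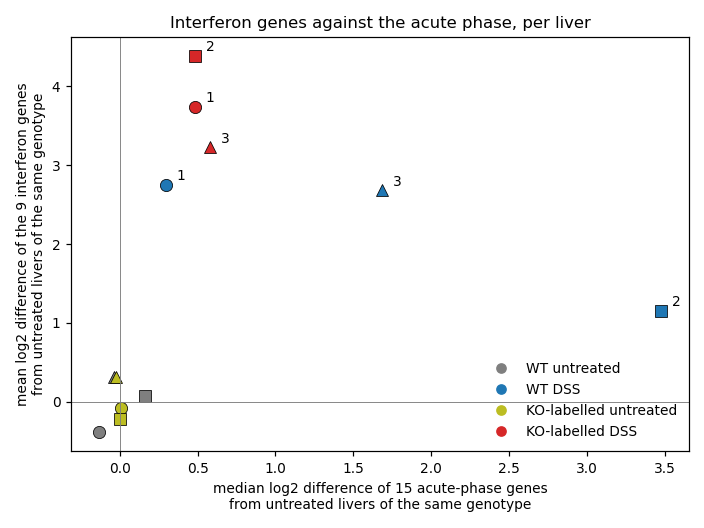
Each point is 1 liver: the mean log2 difference of the 9 interferon genes (vertical) against the median log2 difference of 15 acute-phase genes (horizontal), both from the untreated livers of the same genotype; numbers beside treated livers are replicate numbers. WT DSS replicate 2 lies at 3.47 and 1.15, and the 3 treated KO-labelled livers lie between 3.23 and 4.39 with acute-phase medians of 0.48 to 0.58.

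The genotype order depended on the reference. Against the untreated wild-type livers as a common reference, the interferon means of the knockout-labelled livers were 2.97, 3.62 and 2.46, which overlapped the 2.75 and 2.68 of the first and the third wild-type liver, and their acute-phase medians were 0.20, 0.33 and 0.36. The second treated wild-type liver also had the most signal of monocyte and neutrophil markers (8 genes summing to 122 CPM, against 7.17 to 61.5 CPM in the other 11 livers). Among the 3 treated wild-type livers it was the highest for all 9 Kupffer cell markers and for all 6 sinusoidal endothelial markers, and the part of these cells in its lower interferon level was not tested. Within the knockout-labelled group, the second liver was highest for 8 of the 9 genes and the third lowest for 8.

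**Figure D4:**
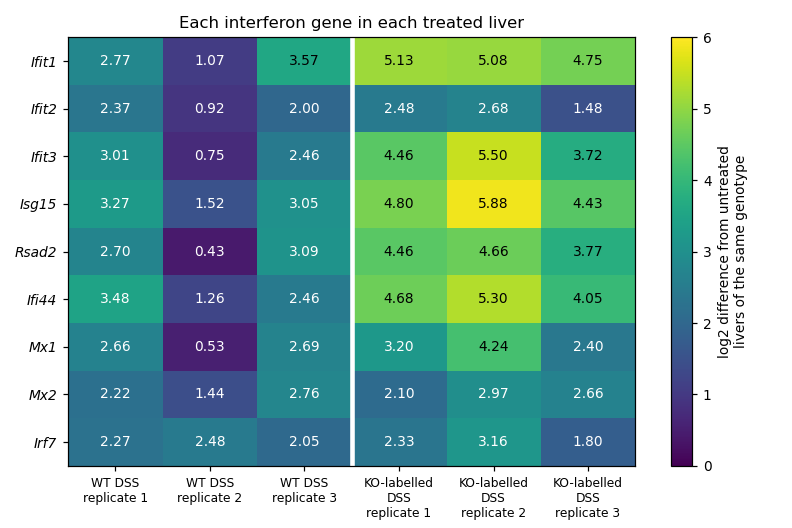
Log2 difference of each of the 9 genes in each treated liver from the untreated livers of the same genotype, as colour and number. The column of WT DSS replicate 2 is the lowest wild-type column except for Irf7 (2.48), and Ifit1, Ifit3, Isg15, Rsad2 and Ifi44 lie above 3.7 in all 3 KO-labelled livers.

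Across the 12 libraries the 9 genes followed each other, with Pearson correlations of log2 CPM from 0.86 to 0.99 in the 36 pairs (median 0.95). After the group means were subtracted, the median was 0.76 and the lowest -0.09. These correlations share the difference between treated and untreated livers and are given as a description. The tested genes outside the 9 whose log2 CPM followed the mean of the 9 most closely over the 12 libraries were Ifih1 (r = 0.99), Ddx60 (0.99), Parp12 (0.98), Eif2ak2 (0.98), Xaf1 (0.98), Parp9 (0.98), Trim30d (0.98), Dhx58 (0.98), Ogfr (0.98) and Ddx58 (0.97). Ifih1 encodes MDA5 and Ddx58 encodes RIG-I, both sensors of viral RNA, and Eif2ak2 encodes the RNA-activated kinase PKR. Among the 9 themselves Irf7 and Mx2 followed the mean least closely (r = 0.92 and 0.94) and Isg15 most closely (0.99).

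The rest of the interferon pathway was described from lists that were also chosen with earlier results known. Each count of calls after DSS is to be read against the 0.453% (wild-type) and 4.57% (knockout-labelled) of all tested genes called higher. With sex as a covariate, 4 genes in the whole table were called in knockout-labelled livers after DSS, and none was in these lists or among the cell markers. Of the genes that attach or remove Isg15, 3 of 5 had a row. Ube2l6, the enzyme that conjugates Isg15, and Usp18, the protease that removes it and also dampens the interferon receptor, rose in both genotypes, and Trim25 did not pass. Ube2l6 rose 2.27-fold in wild-type livers (1.18 ± 0.16, adjusted p = 0.00782) and 2.84-fold in knockout-labelled livers (1.51 ± 0.16, adjusted p = 0.000692). Usp18 was at 22.9, 27.2 and 28.8 CPM untreated and 93.4, 56.1 and 101 CPM treated in wild-type livers, and at 13.8, 8.72 and 14.5 CPM and 89.4, 116 and 77.1 CPM in knockout-labelled livers. Untreated knockout-labelled livers all lay below the wild-type ones (-1.09 ± 0.24, adjusted p = 0.135), and the treated groups overlapped (0.17 ± 0.24, adjusted p = 0.806). Usp18 rose 3.18-fold in wild-type livers (1.67 ± 0.25, adjusted p = 0.0101) and 7.62-fold in knockout-labelled livers (2.93 ± 0.26, adjusted p = 0.000150).

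Transcripts of the interferons themselves were near or at 0. Of 8 ligand genes with a row, Ifna2, Ifna4, Ifne, Il28a and Il28b had no count in any library, where the floor of 3 counts lies at about 0.0406 CPM. Ifnb1 had 3 counts in the third treated knockout-labelled liver and none elsewhere. Ifng was at no more than 0.198 CPM and Ifnk at no more than 0.724 CPM, and neither passed the test after DSS (0.47 ± 1.00 and -0.34 ± 0.57 in wild-type livers). Ifng had 12, 16 and 14 counts in treated knockout-labelled and 10, 3 and 5 counts in treated wild-type livers (log2 difference in level 1.08 ± 0.96, adjusted p = 0.668), and 11, 6 and 13 counts in untreated knockout-labelled livers. The treated genotypes did not overlap in CPM, as was so for 8.8% of all tested genes in this direction. The 5 ligands without a count were not detectable at this depth, and interferon protein or RNA from other organs was not measured. Of 4 receptor genes tested, Ifngr2, a chain of the interferon gamma receptor, rose in knockout-labelled livers (1.13 ± 0.19, adjusted p = 0.00599) and had 0.56 ± 0.19 in wild-type livers (adjusted p = 0.183). Ifnar1, a chain of the type I receptor, was at 53.2 to 58.0 CPM in untreated and 54.5 to 68.9 CPM in treated wild-type livers, with no call in either genotype.

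Among 5 signalling genes analysed here, Socs1, an inhibitor of Jak kinases that interferons induce, rose in both genotypes, from 0.105, 0.219 and 0.347 CPM to 3.00, 1.13 and 0.828 CPM in wild-type livers (2.89 ± 0.51, adjusted p = 0.0222) and from 0.611, 0.524 and 0.715 CPM to 3.68, 3.58 and 4.89 CPM in knockout-labelled livers (2.71 ± 0.48, adjusted p = 0.00810). The second treated wild-type liver was in the middle of its group for Socs1. Socs3, an inhibitor that Stat3 induces, was chosen here after its values were seen and was at 8.47, 69.9 and 26.1 CPM in treated wild-type and 10.01, 8.43 and 12.2 CPM in treated knockout-labelled livers, highest in the liver with the lowest interferon genes. Its log2 fold change was 2.68 ± 0.59 (adjusted p = 0.0749) and 0.73 ± 0.56 (adjusted p = 0.468), with an interaction of -1.95 ± 0.79 (adjusted p = 0.265). Tyk2, a kinase of the type I receptor, rose 1.46-fold in knockout-labelled livers (0.55 ± 0.11, adjusted p = 0.0150). Among 6 other interferon regulatory factors, Irf1 and Irf8 rose in knockout-labelled livers (1.35 ± 0.36, adjusted p = 0.0469, and 1.01 ± 0.22, adjusted p = 0.0170) and none passed in wild-type livers. Irf3, the constitutive factor that acts with Irf7, had log2 fold changes of 0.05 ± 0.14 and -0.03 ± 0.14.

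Of 14 sensors of nucleic acid and their adaptors, 2 were called higher in wild-type and 6 in knockout-labelled livers (0 and 0 with sex as a covariate), with medians of 0.74 and 0.99. Ddx58 rose 2.33-fold and 3.27-fold (1.22 ± 0.22, adjusted p = 0.0259, and 1.71 ± 0.22, adjusted p = 0.00174). Dhx58, which encodes LGP2, a regulator of both RNA sensors, rose 3.6-fold and 7.29-fold (1.85 ± 0.33, adjusted p = 0.0261, and 2.87 ± 0.34, adjusted p = 0.00124). Zbp1, a sensor of left-handed nucleic acid, reached the largest change of the list and rose 9.73-fold in knockout-labelled livers (3.28 ± 0.52, adjusted p = 0.00724), with 2.62 ± 0.50 (adjusted p = 0.0511) in wild-type livers. Ifih1 (1.89 ± 0.25) and Tlr3 (1.46 ± 0.19), a receptor of double-stranded RNA, also rose in knockout-labelled livers. Toll-like receptors for bacterial products or DNA had no call, nor had the adaptors Mavs, Myd88 and Ticam1.

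Of 24 other interferon-induced antiviral genes tested, all 24 were called higher in knockout-labelled livers and 4 in wild-type livers, against 4.57% and 0.453% of all tested genes. With sex as a covariate 0 and 2 were called, and 19 of the 24 had an unadjusted p under 0.05 in knockout-labelled livers by edgeR. The medians were 1.99 and 1.08, and 22 of the 24 had an unadjusted p under 0.05 in wild-type livers by edgeR. The 4 were Xaf1 (2.05 ± 0.23, adjusted p = 0.00247), Ddx60 (2.14 ± 0.33, 0.0147), Tor3a (1.60 ± 0.27, 0.0191) and Parp9 (0.90 ± 0.17, 0.0296). In knockout-labelled livers the largest changes with counts in both groups were those of Ifit3b (5.0 ± 0.73), Oasl2 (3.93 ± 0.66), Cmpk2 (3.64 ± 0.62) and Ddx60 (3.27 ± 0.34). Cmpk2, which lies beside Rsad2 in the genome and makes the nucleotide that viperin uses, was at 75.7, 11.3 and 73.3 CPM in treated wild-type livers and at 97.4, 127 and 89.9 CPM in treated knockout-labelled livers. The second treated wild-type liver was within the untreated range of Cmpk2 (8.0 to 13.3 CPM). That liver was the lowest of its group for 19 of the 24 genes, and the first was the highest for 15. Ifit1bl2, which shares some sequence with Ifit1, had no count in the 3 untreated knockout-labelled livers. It had 144, 193 and 68 counts after DSS. The mean of the treated knockout-labelled livers, 1.77 CPM, was 43.7 times a floor of 3 counts per library.

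**Figure D5:**
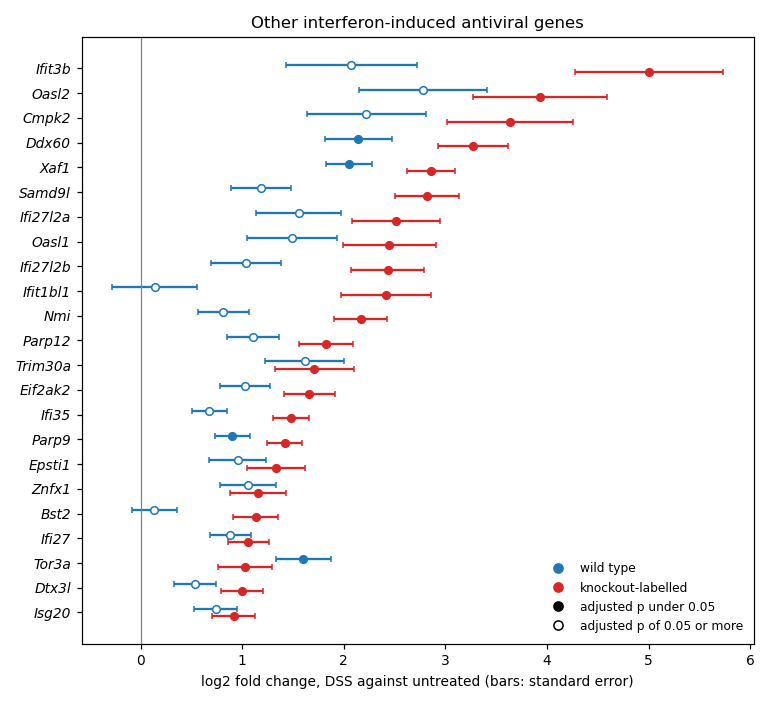
Log2 fold change after DSS of 23 other interferon-induced genes in wild-type (blue) and knockout-labelled (red) livers with standard errors; filled points have an adjusted p under 0.05, and Ifit1bl2 is left out because its untreated knockout-labelled libraries are at 0. All red points are filled, and blue points are filled for Xaf1, Ddx60, Tor3a and Parp9.

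Markers of liver cell types were also compared after DSS, and no marker gene was called in wild-type livers. In knockout-labelled livers the calls were in the Kupffer cell, monocyte and neutrophil, B cell and hepatocyte lists. Kupffer cell markers (9 genes, with Clec4f at 81.6 to 131 CPM untreated and 120 to 197 CPM treated in wild-type livers) summed to 323 to 653 CPM in untreated and 509 to 1096 CPM in treated wild-type livers, and to 401 to 442 and 775 to 1202 CPM in knockout-labelled livers. In knockout-labelled livers 8 of these 9 genes were called higher and in wild-type livers none, with median log2 fold changes of 1.08 and 0.64, which are smaller than those of the 9 interferon genes. With sex as a covariate 0 of the 9 were called in knockout-labelled livers, and 7 had an unadjusted p under 0.05 in edgeR. Monocyte and neutrophil markers had medians of 3.55 in wild-type and 3.18 in knockout-labelled livers. Their sums in the treated wild-type livers were 17.8, 122 and 9.995 CPM against 7.94 to 18.2 CPM untreated, so that only the second liver, the one with the lowest interferon genes, lay above the untreated range. None was called in wild-type livers, and Csf3r, a growth factor receptor of neutrophils, rose in knockout-labelled livers (1.58 ± 0.33, adjusted p = 0.0152). In knockout-labelled livers 5 of the 8 did not overlap, against 17.8% of all tested genes. Plasmacytoid dendritic cell markers, from cells known for interferon production, summed to no more than 5.68 CPM in any library, with Siglech at 0.250 to 1.85 CPM. Their median log2 fold changes after DSS were 1.24 in wild-type and 1.13 in knockout-labelled livers with none of 5 called, and Siglech and Cox6a2 had no overlap in knockout-labelled livers. With sex as a covariate the knockout-labelled median was 6.94, and the interaction median moved from -0.24 to 5.85, with none called. In that fit only the third untreated wild-type liver separates sex from group, and it had 0 counts of Klk1, Pacsin1 and Cox6a2. The size of these 2 medians thus depends on zero counts in 1 library and is not read as a change of these cells. Several marker lists had a lower untreated median in knockout-labelled livers and an interaction above 0, as the interferon genes had, with no gene called in either. These medians were -2.27 and 1.09 for monocyte and neutrophil markers, -0.73 and 1.2 for stellate cell markers, -0.28 and 1.81 for T and NK cell markers, -0.13 and 0.66 for sinusoidal endothelial markers, -0.14 and 0.56 for Kupffer cell markers and -1.31 and 2.43 for B cell markers. Of the monocyte and neutrophil markers, Retnlg and Mpo had 0 counts in every untreated knockout-labelled liver. Ngp had 0, 0 and 13 counts there and Ltf 0, 0 and 12, so the fitted sizes of these genes depend on counts at or near 0. With sex as a covariate the interaction medians were 1.76, 1.96, 2.73, 0.75, 0.72 and 2.71 in the same order, against 1.02 for the interferon genes. B cell markers summed to no more than 9.34 CPM. Untreated, all 5 were lower in every knockout-labelled than in every wild-type liver (10.7% of all tested genes had no overlap in this direction). Their median log2 fold change after DSS was -1.18 in wild-type livers, with none called, and 1.25 in knockout-labelled livers, with 1 of 5, Pax5, called higher. The sums in the treated knockout-labelled livers were 9.34, 2.39 and 4.24 CPM, against 1.86 to 2.43 CPM untreated, so the second liver, the highest for 8 of the 9 interferon genes, lay within the untreated range. In the interaction all 5 had an unadjusted p under 0.05 in edgeR, and 2 did with sex as a covariate. T and NK cell markers summed to no more than 10.9 CPM. All 7 had higher means in treated knockout-labelled than in treated wild-type livers (median 1.33, none called), 5 of them without overlap, against 8.8% of all tested genes. Of 7 hepatocyte markers, 1 was called after DSS in knockout-labelled livers, Hnf4a, which fell (log2 fold change -0.70 ± 0.18, adjusted p = 0.0325), against 2.46% of all tested genes called lower. The median of the 7 was -0.33, with 5 below 0 and 2 above, Alb (0.17) and Apoa1 (0.22). The part of these cells in the interferon result was not tested.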

How the data were processed

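Paired-end reads of rRNA-depleted liver RNA were, per the labels, processed with fastp, HISAT2 (genome build mm9) and StringTie. The authors deposited estimated counts per gene as whole numbers, not normalized; the annotation used for counting is not given in the sources used here. StringTie derives counts from coverage, so reads shared by similar genes may be divided between them. Gene names came from GENCODE vM1, which named 28677 of the 51609 rows; 23458 rows were 0 in all libraries.

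Genes passing filterByExpr were scaled by TMM and tested in R 4.3.3 with edgeR 4.0.16 with the robust quasi-likelihood test in a single fit over the 4 groups (biological coefficient of variation 0.317). P-values were adjusted by the Benjamini-Hochberg method over all 17652 tested genes, with a threshold of 0.05. Log2 CPM for scores and correlations used a prior count of 2. DESeq2 1.42.0, limma 3.58.1 (voom), DESeq2 size factors, other filters, a covariate for sex set by Xist alone, a replicate block, only the groups compared and leaving out each library were alternatives. The steps were tested on simulated data. With 3 mice against 3, an exact permutation test cannot give a p under 0.1. The design text calls the 3 mice of a group biological replicates.

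The members and lists were chosen with earlier results of these data known. Named genes were the 9 members, Rela and Stat3, list genes past the threshold (up to 5 per list and comparison by fold, or 3 by p where none passed), the 5 acute-phase genes with the largest wild-type fold, defining markers, and the 10 genes most like the members; Trim25, Socs3, Ifnar1, Irf3 and adaptors without a call were added after their values were seen. No library was a duplicate.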

Additional observations from a re-analysis of the deposited data

Results flagged for a closer look

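The DSS response of Ifit1bl2 (2010002M12Rik in vM1), which shares stretches of sequence with Ifit1, differed between genotypes by the test of the interaction in edgeR, with an estimate of 8.36 on the log2 scale (adjusted p = 0.0100). It had 14, 23 and 29 counts in untreated and 87, 45 and 66 counts in treated wild-type livers, and 0, 0 and 0 counts in untreated and 144, 193 and 68 counts in treated knockout-labelled livers. The fitted size depends on the zero counts of the untreated knockout-labelled livers and is no bound. With sex as a covariate, none of the 24 other interferon-induced genes, this one included, passed in the interaction. How shared reads with Ifit1 were divided was not tested.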

How the results depend on the processing

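The number of the 9 genes called in wild-type livers after DSS was 2, and it moved to 9 with the DESeq2 Wald test, 7 with limma-voom, 5 with at least 10 counts in every library, and 1 with no filter, with sex as a covariate and with only the groups compared. Leaving out each library in turn gave 1 to 9 calls in wild-type livers and 7 to 9 in knockout-labelled livers, where Ifit2 (edgeR adjusted p = 0.0501) and Mx1 (0.0718) were lost without the second untreated knockout-labelled library. In knockout-labelled livers 9 were called in every fit with all libraries except with sex as a covariate, which called 0 and moved the median log2 fold change to 3.53. That fit also moved the median genotype difference after DSS to 0.11 and the median interaction to 1.02, and the cause was not tested. DESeq2 called 1 gene between untreated genotypes and 1 in the interaction, and the other settings called 0. Over all tested genes, edgeR called 121, 1240, 11, 59 and 72 genes in the 5 comparisons in the order reported, DESeq2 869, 2348, 337, 597 and 717, and edgeR with sex as a covariate 50, 4, 2, 5 and 4.

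The replicate numbers did not pair the samples (1 of 18 same-number pairs had a correlation over 0.1), and with the replicate block 2 and 9 genes were called in wild-type and knockout-labelled livers. Small genotype differences changed sign. Untreated, Irf7 was 0.041 with limma-voom, 0.14 with sex as a covariate and -0.16 to 0.14 with a library left out, and Ifit2 was -0.33 to 0.030 with a library left out. After DSS, Ifit2 was -0.083 with limma-voom, -0.089 with sex as a covariate and -0.046 to 0.59 with a library left out. Mx1 was -0.18 with limma-voom and -0.34 to 0.62 with a library left out, Irf7 -0.23 with sex as a covariate and -0.21 to 0.50, and Mx2 -0.62 to 0.020. The interaction was -0.086 for Ifit2 and -0.37 for Irf7 with sex as a covariate, and -0.17 to 0.54 for Irf7 with a library left out. Of the 8 interferon ligands with a row, 5 had no count in any library, and whether greater depth would show those was not tested.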
